A study of Homo sapiens with 30 samples.

Results

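The genes described here encode the subunits of RNA polymerases I, II and III. They were taken from the PRO-seq table as every gene whose symbol starts with POLR1, POLR2 or POLR3, with 1 pseudogene (POLR2J4) left out, and 28 of 20367 gene symbols are described. By the enzyme they serve, 3 encode subunits found only in polymerase I, 2 encode subunits shared by polymerases I and III, 5 encode subunits shared by all 3 enzymes, 9 belong to polymerase II only and 9 to polymerase III only. The cells were G401, a malignant rhabdoid tumor line that lacks SNF5, the SWI/SNF subunit encoded by SMARCB1. Lentivirus-transduced, drug-selected G401 populations carried a tetracycline-inducible EGFP, SNF5 or OMOMYC, a dominant-negative MYC mutant, and every population received 1 µg/ml doxycycline for 24 h. Engaged polymerase was measured by PRO-seq in 3 samples per construct, MYC binding by ChIP-seq in 2 per construct and open chromatin by ATAC-seq in 3 per construct. The comparisons below set SNF5 and OMOMYC each against EGFP and against each other. All of the populations derive from 1 cell line. The study describes its PRO-seq and ChIP-seq replicates as independent experiments. The p-values below measure how much the differences between constructs varied from one experiment to the next in these cells. Differences shared by all constructs of the same replicate number were taken out of that spread.

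Polymerase I transcribes the large ribosomal RNA precursor, polymerase II transcribes messenger RNAs, and polymerase III transcribes transfer RNAs, 5S ribosomal RNA and other short RNAs. Each enzyme is built around a pair of large catalytic subunits, and several small subunits are common to more than one enzyme. All of the subunit genes are themselves transcribed by polymerase II, and genes of ribosome and transfer RNA production are a well-known class of MYC targets. MYC binds DNA as a dimer with MAX and prefers the E-box CACGTG.

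PRO-seq maps the last base added by an engaged polymerase, so its reads count polymerases on DNA and not RNA levels. The table gave, for each gene, the reads in a 50 bp promoter-proximal window near the start and the reads in the gene body, from 1 kb past the start to the end of the gene. Gene body totals ran from 28444943 to 46957634 reads per sample. Promoter-proximal reads made up 1.46% to 10.3% of the reads of both regions, and this share followed the replicate number and not the construct. Replicates with the same number deviated together, and every test therefore carried the replicate number as a block. SMARCB1 held 11 gene body reads over the 3 EGFP samples, 11 over the 3 OMOMYC samples and 10777 over the 3 SNF5 samples, as the labels say.

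In EGFP cells 5 subunit genes had a MYC peak within 1 kb of their start in both ChIP-seq samples, and 2 did when the peaks of both samples also had to overlap reciprocally by 50%. The share of all genes under that overlap rule was not counted. The 5 were POLR1B and POLR1E of polymerase I, POLR2I of polymerase II, and POLR3D and POLR3E of polymerase III. All 5 peaks of the first sample at subunit genes were among these (4.35% of all genes had one there), and the background for both samples was 4.31% of the 20367 genes and 5.53% of the 15057 genes with enough gene body reads to be tested. None of the 7 genes for shared subunits was among the 5. The sequences shown next are those around the E-box nearest the MYC summit at 3 of these genes, because both EGFP samples placed a peak over them. Each is 30 bases of the plus strand of GRCh37, the build of the ChIP-seq and PRO-seq files (hg19), with the E-box in capitals:
POLR1B, chr2:113300183-113300212, coding exon of the canonical transcript: ctgacgcgggcgCACGTGgagtccttcaac
POLR2I, chr19:36605860-36605889, upstream of the canonical transcript: cggagctgcgcaCACGTGctggctccccgc
POLR3E, chr16:22308717-22308746, E-box spanning the canonical start: cccgctccccccCACGTGtccgccggagtt

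POLR3D also had CACGTG within 100 bp of its summits, in an intron, and POLR1E had none there. In the second EGFP sample 4 of the 19 subunit gene peaks, or 21.1%, held CACGTG within 100 bp of the summit, and 26.1% of all 5396 peaks of that sample did. In the first sample it was 4 of 5, against 51.3% of all 940 peaks. Of the 28 genes, 20 matched an entry among the RefSeq promoters of GRCh38.p14, which run from 250 bases before a start to 50 after it. CACGTG, which reads the same on both strands, lay in 3 of those 20 (POLR3A, POLR3C and POLR3E, 15%) and in 8.77% of all 27305 genes with a promoter entry. A match is a description of the letters and not of a bound site.

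The second EGFP sample, with 5396 peaks against 940 in the first, placed MYC at 19 of the 28 genes, or 67.9%, against 23.1% of all genes and 30% of the genes tested in gene bodies. All 3 polymerase I genes and both genes shared by I and III had a peak there, as did 7 of the 9 polymerase III genes and 6 of the 9 polymerase II genes, but only POLR2H among the 5 genes shared by all 3 enzymes. The highest fold enrichment at a summit was 13.2 at POLR3D, a subunit of the polymerase III heterodimer that resembles an initiation factor, where the first sample gave 4.42. POLR1B, the second largest polymerase I subunit, had 9.60 in the first sample and 7.58 in the second. POLR3E, the partner of POLR3D, had 5.93 and 9.34, and POLR3G, which helps open promoters, had 9.28 in the second sample alone. The 6 polymerase II genes ran from 3.57 at POLR2J3 to 4.71 at POLR2I in the second sample. POLR2B, the second largest subunit, had 3.81, and POLR2A, the catalytic subunit with the carboxy-terminal repeats, had 3.64 at a summit placed at -912 bp, which lay 782 bp from the start of ZBTB4.

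Only 1 of the 28 genes kept a peak call in a SNF5 sample. POLR1B had a fold enrichment of 6.64 in the first SNF5 sample, 643 bp past its start in the table, and no subunit gene had a peak in the second. SNF5 samples held few peaks of any kind, 137 and 27, with 0.614% and 0.0786% of all genes bound within 1 kb. The OMOMYC samples held none, so no subunit gene was called there. Peaks were called in each sample separately, and a missing call does not say how much signal was left.

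**Figure D1:**
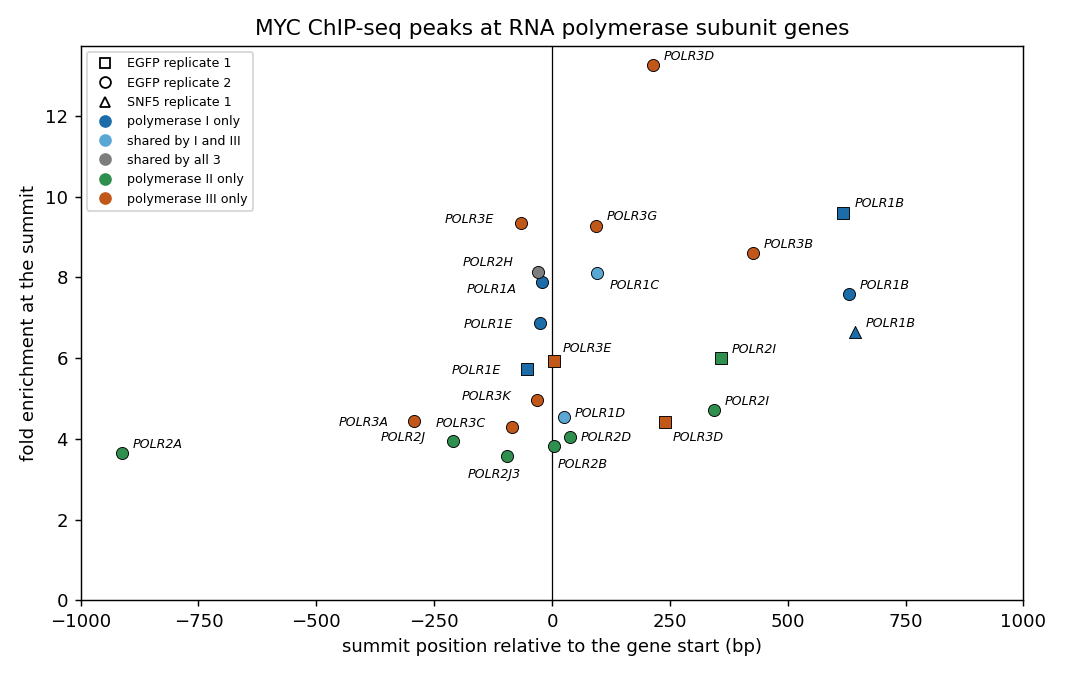
Fold enrichment at each MYC ChIP-seq summit within 1 kb of a subunit gene start, against the position of the summit in bp from the start along the gene, for EGFP replicate 1 (squares), EGFP replicate 2 (circles) and SNF5 replicate 1 (triangle), colored by enzyme. Most summits sit within 100 bp of the start, POLR3D is the highest at 13.2, and POLR1B is the only gene with a SNF5 point, at 6.64.

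Several of these starts are shared with a neighbor, and the peaks cannot be given to one gene. The POLR1A summit of the second sample lay 6 bp from the start of PTCD3, the POLR2I summits 41 and 26 bp from that of TBCB, and the POLR3C summit 67 bp from that of RNF115. The gene starts of the table were also not always those of the canonical GENCODE transcript. For 23 of the 28 genes both lay within 100 bp, but the canonical start lay at 550 bp for POLR1B, at 1149 bp for POLR1D and at -1696 bp for POLR2H, counted from the table's start along the gene. Measured from the canonical start, the POLR1B summits fell at 68 bp and 80 bp. The second-sample summits of POLR1D and POLR2H fell at -1124 bp and 1667 bp from it, both beyond 1 kb. The peaks counted for POLR1D and POLR2H therefore depend on the table's start. Promoter-proximal and gene body values of these 3 genes refer to the table's start. The gene body of POLR1D, counted from 1 kb past that start, contains the canonical start at 1149 bp.

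ATAC-seq peaks, in GRCh38, could be placed against the RefSeq starts of the same 20 genes. Of these, 6 (POLR1A, POLR1D, POLR2H, POLR3E, POLR3F and POLR3K) had a peak within 1 kb in all 9 samples, against 29% of 13295 genes. POLR2J2 and POLR2L had none in any sample. The number of the 20 with a peak was 14, 15 and 10 in the EGFP samples, 9, 17 and 11 in the OMOMYC samples and 17, 15 and 16 in the SNF5 samples. The ranges overlapped between EGFP and OMOMYC and between EGFP and SNF5, and the share of all genes with a peak ran from 34.9% in the first OMOMYC sample to 59.7% in the first SNF5 sample, where 9 and 17 of the 20 had one.

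Subunit genes were well covered by engaged polymerase. To set levels side by side, gene body reads were scaled to a common library size and divided by gene body length in kb. Over the 3 EGFP samples the median of the 26 genes that passed the filter (a mean of at least 10 reads) was 109 scaled reads per kb, against 46.0 over all 15057 genes that passed. POLR2L, a small subunit of all 3 enzymes, was the densest at 751 ± 69.2 (SD, n = 3), with no EGFP sample overlapping any other gene. POLR1C, which forms the assembly heterodimer of polymerases I and III with POLR1D, followed at 409 ± 53.4, and its lowest sample of 353 overlapped the highest sample of 365 of POLR2H, a further subunit of all 3 enzymes, at 308 ± 49.2. The catalytic subunits differed from one another: POLR2A had 195 ± 25.5, POLR1A of polymerase I 132 ± 17.7 and POLR3A of polymerase III 105 ± 2.26. The 3 ranges, 169 to 220, 118 to 151 and 103 to 108, did not overlap. From POLR3D at 142 down to POLR3E at 83.4, each of 14 genes overlapped the next in the order of the means. Below them, POLR3G had 33.7 ± 1.13 and POLR3B, the second largest polymerase III subunit, 27.9 ± 1.27, with no overlap between them or with POLR3E.

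**Figure D2:**
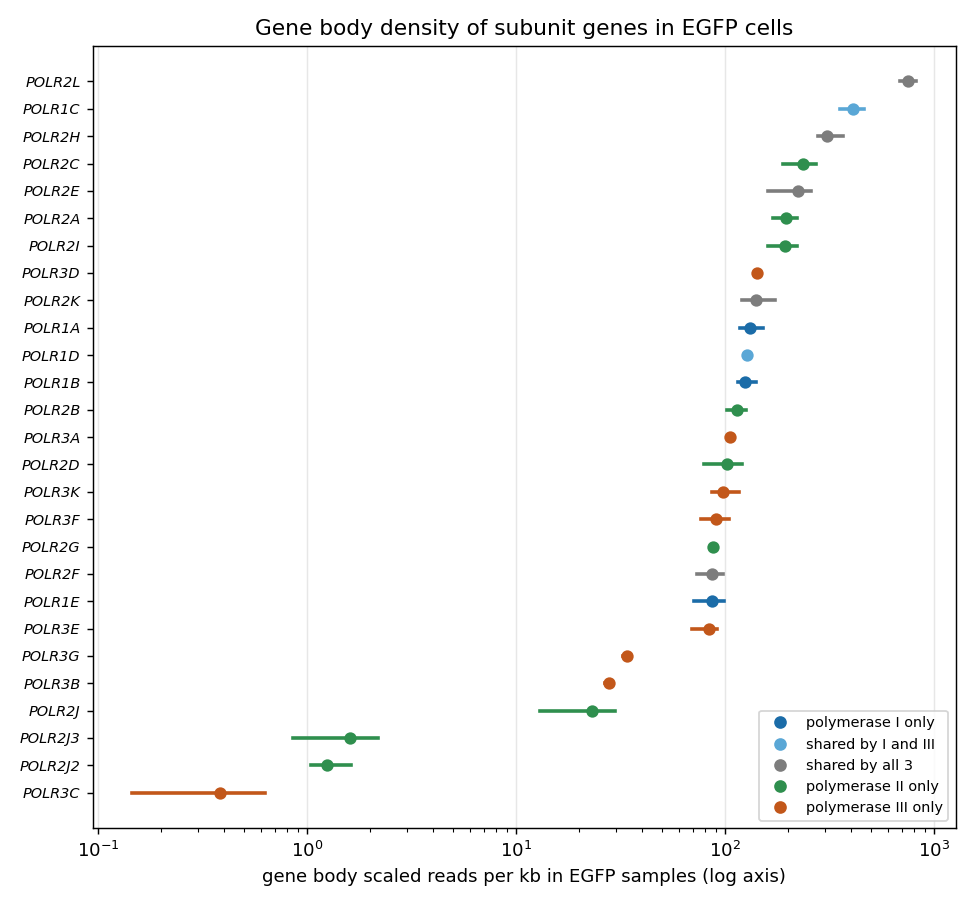
Gene body scaled reads per kb (log axis) of the subunit genes in the 3 EGFP samples, with a point at the mean and a line from the lowest to the highest sample, colored by enzyme. POLR2L lies apart at 751, most genes lie between 83.4 and 409, and the 3 POLR2J genes and POLR3C are the lowest. POLR3GL, listed at 0 in 1 EGFP sample, is not drawn.

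The lowest members have to be read with care. POLR3C had 74 gene body reads over all 9 samples and POLR3GL 12, both had 0 promoter-proximal reads, and both fell below the filter. The 9 genes that lie between them on chromosome 1 had 0 promoter-proximal reads as well, as did 18.8% of all symbols. They had at most 27 gene body reads over the 9 samples, so a whole stretch of the chromosome held hardly any reads. POLR3C had a MYC peak in the second EGFP sample and an ATAC-seq peak in 8 of 9 samples. Whether the alignment left these genes without reads was not tested. POLR2J, POLR2J2 and POLR2J3 are near-identical copies on chromosome 7, and reads of mapping quality under 10 had been removed, so their values of 23.0, 1.25 and 1.61 scaled reads per kb cannot be assigned to one copy with certainty.

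With SNF5, the gene body reads of 12 of the 26 tested subunit genes fell and those of none rose (edgeR quasi-likelihood test, adjusted p under 0.05). Of all 15057 genes 17.1% fell and 17.3% rose. The fall was modest: the median log2 fold change of the 26 was -0.31, against -0.03 over all genes, and 23 of the 26 values were below 0. Of the polymerase I genes 2 of 3 fell (median -0.34), of the I and III genes 1 of 2, of the genes shared by all 3 enzymes 3 of 5 (median -0.27), of the polymerase II genes 2 of 9 (median -0.28) and of the polymerase III genes 4 of 7 (median -0.38). The 9 polymerase II genes include the near-identical copies POLR2J, POLR2J2 and POLR2J3, and the 7 polymerase III genes leave out POLR3C and POLR3GL. The differences between these classes were not tested.

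With OMOMYC, 6 of the 26 fell and none rose, where 4.51% of all genes fell and 3.99% rose. The median log2 fold change was -0.23, against 0.00 over all genes, and again 23 of 26 were below 0. They were 1 of 3 polymerase I genes (POLR1B), 1 of 2 genes of I and III (POLR1C), 1 of 5 of all enzymes (POLR2L), 0 of 9 of polymerase II (2 had an unadjusted p under 0.05) and 3 of 7 of polymerase III (POLR3A, POLR3G and POLR3K). Both contrasts share the EGFP samples, and the share of all genes called in both was not counted. Each contrast's values are therefore given side by side below, and no overlap is read from them.

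**Figure D3:**
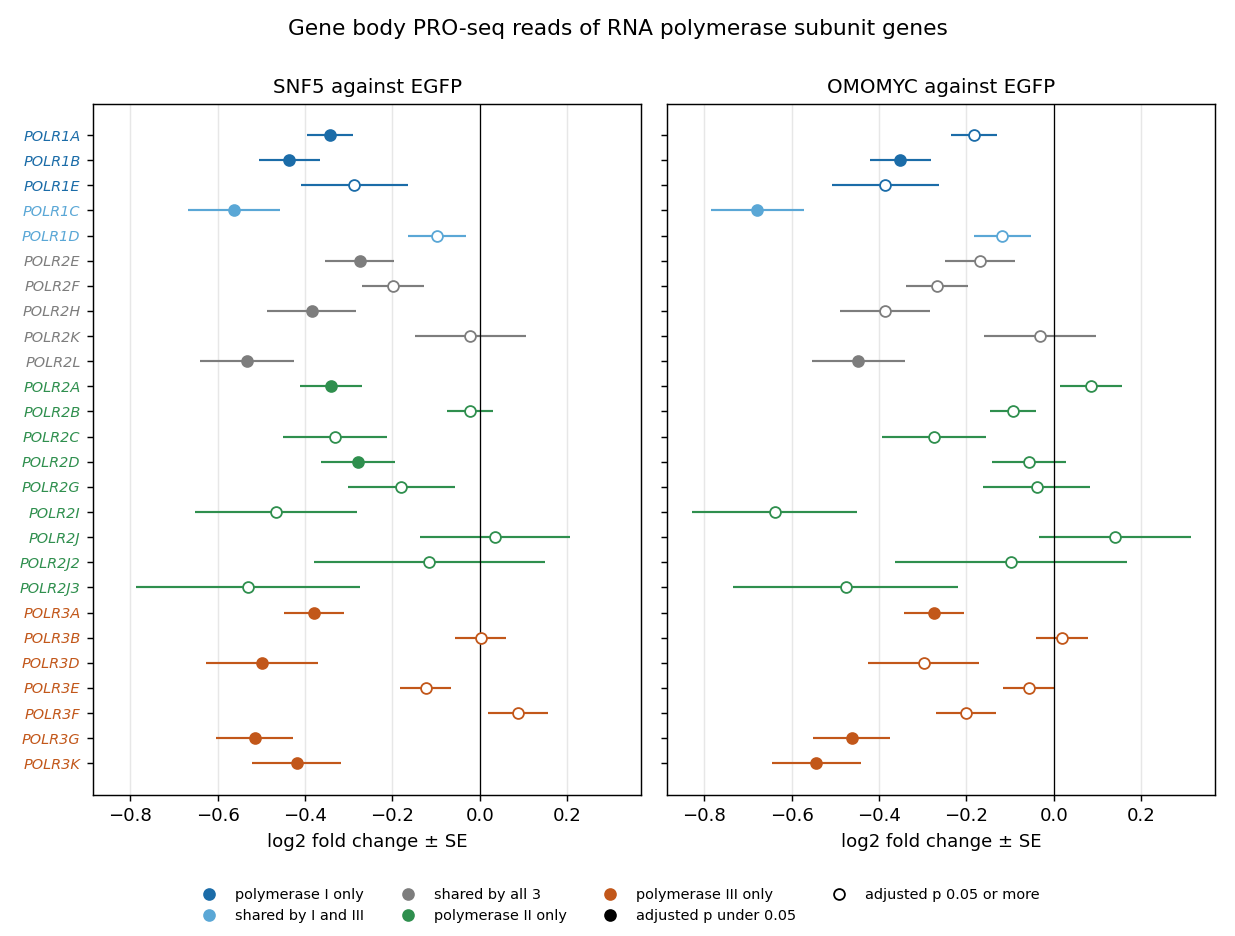
Log2 fold change of gene body reads ± SE (edgeR) for the 26 tested subunit genes, SNF5 against EGFP on the left and OMOMYC against EGFP on the right, filled where the adjusted p is under 0.05 and colored by enzyme. Filled points number 12 with SNF5 and 6 with OMOMYC, all below 0, and POLR2A lies at -0.34 with SNF5 and at 0.08 with OMOMYC.

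Among the polymerase I genes, POLR1B had 115, 115 and 140 scaled reads per kb in EGFP replicates 1, 2 and 3. It had 87.8, 83.6 and 122 in the OMOMYC replicates and 89.8, 83.1 and 101 in the SNF5 replicates. All SNF5 samples lay below all EGFP samples, and OMOMYC was below EGFP at each replicate number, with the third sample inside the EGFP range. The log2 fold change was -0.44 ± 0.0697 (SE) with SNF5 (edgeR adjusted p = 0.00217) and -0.35 ± 0.0698 with OMOMYC (adjusted p = 0.0263). POLR1A, which carries the catalytic site with POLR1B, had 126, 118 and 151 with EGFP, 110, 98.3 and 142 with OMOMYC and 101, 87.6 and 125 with SNF5. The samples overlapped between groups, since the third replicate was high throughout, but the order EGFP, OMOMYC, SNF5 held at every number. POLR1A fell by 21.1% with SNF5 (log2 -0.34 ± 0.052, edgeR adjusted p = 0.00166) and had -0.18 ± 0.0519 with OMOMYC (adjusted p = 0.0597). POLR1E, of the heterodimer that helps the enzyme elongate, passed in neither, with -0.29 and -0.39.

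POLR1C had the deepest drop of any subunit gene with OMOMYC. Its gene body held 414, 353 and 460 scaled reads per kb in the EGFP samples. The OMOMYC samples held 251, 182 and 353 and the SNF5 samples 259, 228 and 354. Every OMOMYC sample lay below every EGFP sample, but the third OMOMYC sample (353.2) lay only just below the second EGFP sample (353.4). The third SNF5 sample (353.8) lay just inside the EGFP range. The log2 fold changes were -0.68 ± 0.106 with OMOMYC (edgeR adjusted p = 0.0172) and -0.56 ± 0.105 with SNF5 (adjusted p = 0.00435). Its heterodimer partner POLR1D passed in neither, with -0.12 ± 0.0658 and -0.10 ± 0.0657. The gene body counted for POLR1D contains its canonical start, so reads near that start are included.

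Of the subunits common to all 3 enzymes, POLR2L moved most. It had 750, 682 and 820 scaled reads per kb with EGFP, 517, 428 and 729.5 with OMOMYC and 503, 485 and 568 with SNF5. The SNF5 samples lay below the EGFP samples, and the third OMOMYC sample lay within the EGFP range. POLR2L fell by 30.9% with SNF5 (log2 -0.53 ± 0.107, edgeR adjusted p = 0.00579) and by 26.7% with OMOMYC (-0.45 ± 0.107, adjusted p = 0.0394).

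POLR2H had 278, 365 and 282 with EGFP, 235, 231 and 237 with OMOMYC and 248, 235 and 222 with SNF5, and neither construct's samples overlapped the EGFP samples. Its log2 fold change was -0.38 with SNF5 (edgeR adjusted p = 0.019) and -0.39 with OMOMYC, where it just missed the threshold (adjusted p = 0.0506). POLR2E had 251, 160 and 257 with EGFP, 193, 151 and 248 with OMOMYC and 183, 137 and 232 with SNF5, ranges that overlapped while SNF5 was lowest at each number. Its log2 fold change was -0.27 ± 0.0793 with SNF5 (edgeR adjusted p = 0.0263) and -0.17 with OMOMYC (adjusted p = 0.195). POLR2F had -0.20 and -0.27, and POLR2K, a zinc-binding subunit, -0.02 and -0.03, none of them past the threshold.

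POLR2A, of polymerase II, differed between the constructs. It had 169, 195 and 220 scaled reads per kb in the EGFP samples. The OMOMYC samples had 189, 206 and 221 and the SNF5 samples 146, 135 and 180. SNF5 was below EGFP at all 3 replicate numbers and OMOMYC was above it at all 3, although the SNF5 and EGFP ranges overlapped. The log2 fold change was -0.34 ± 0.0711 with SNF5 (edgeR adjusted p = 0.00689) and 0.08 ± 0.0709 with OMOMYC (adjusted p = 0.467). Tested directly, SNF5 was lower than OMOMYC by -0.43 ± 0.0711 on the log2 scale (adjusted p = 0.00393), where 7.54% of all genes were lower. POLR2A was the only gene of the 26 called lower in that contrast.

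POLR2D, of the stalk that binds the new transcript, had 120, 78.7 and 106 with EGFP, 103, 76.6 and 112 with OMOMYC and 89.8, 70.8 and 88.6 with SNF5. The second replicate was low throughout, so the ranges overlapped, and SNF5 was the lowest at each number. POLR2D fell by 17.5% with SNF5 (log2 -0.28 ± 0.0849, edgeR adjusted p = 0.0327) and had -0.06 with OMOMYC. Its stalk partner POLR2G had -0.18 and -0.04. POLR2B had -0.02 ± 0.0525 with SNF5 and -0.09 ± 0.0526 with OMOMYC, and its samples of 126, 112 and 102 with EGFP, 120, 101 and 99.3 with OMOMYC and 130, 107 and 99.4 with SNF5 ran into each other. POLR2I, with MYC in both EGFP samples, had -0.47 ± 0.186 and -0.64 ± 0.189 and passed in neither (edgeR adjusted p = 0.0809 and 0.0663); its gene body past 1 kb is short and held a mean of 92.0 reads per sample. POLR2C had -0.33 and -0.27, and POLR2J, POLR2J2 and POLR2J3 passed in no contrast.

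Of the polymerase III genes, POLR3A, which encodes the largest subunit, had 103, 105 and 108 scaled reads per kb with EGFP, 83.8, 78.4 and 99.9 with OMOMYC and 83.5, 74.0 and 85.6 with SNF5. Neither construct overlapped EGFP. It fell by 23.1% with SNF5 (log2 -0.38 ± 0.069, edgeR adjusted p = 0.0038) and by 17.3% with OMOMYC (-0.27 ± 0.069, adjusted p = 0.0443).

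POLR3G, whose product is found in one of 2 forms of the enzyme and is replaced by that of POLR3GL in the other, had 34.7, 33.8 and 32.5 with EGFP, 23.6, 22.5 and 27.5 with OMOMYC and 24.1, 21.3 and 25.5 with SNF5. The groups were again fully apart from EGFP, and the third replicate was the highest in both. The log2 fold changes were -0.51 ± 0.0883 with SNF5 (edgeR adjusted p = 0.00296) and -0.46 ± 0.0885 with OMOMYC (adjusted p = 0.0255).

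POLR3K, which takes part in termination, had 91.6, 86.0 and 116 with EGFP, 65.8, 53.3 and 83.8 with OMOMYC and 73.2, 57.2 and 90.9 with SNF5. OMOMYC lay wholly below EGFP and SNF5 overlapped it. The changes were -0.42 ± 0.102 with SNF5 (edgeR adjusted p = 0.013) and -0.54 ± 0.102 with OMOMYC (adjusted p = 0.0255). POLR3D had 138, 140 and 146 with EGFP, 104, 98.3 and 145 with OMOMYC and 110, 89.3 and 101 with SNF5. It fell by 29.2% with SNF5 (log2 -0.50 ± 0.128, edgeR adjusted p = 0.0162), and with OMOMYC, where the third sample sat at the EGFP level, it had -0.30 (adjusted p = 0.159).

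Not every polymerase III gene followed. POLR3B had 0.00 ± 0.059 with SNF5 and 0.02 ± 0.0591 with OMOMYC, although MYC lay 426 bp past its start in the second EGFP sample at a fold enrichment of 8.59. POLR3E, bound in both EGFP samples, had -0.12 ± 0.0585 and -0.06 ± 0.0586. POLR3F, of the trimer that takes part in initiation, had 91.9, 104 and 76.5 with EGFP, 78.0, 84.0 and 73.1 with OMOMYC and 95.5, 108 and 85.3 with SNF5. SNF5 was above and OMOMYC below EGFP at each replicate number, with overlapping ranges. Neither passed against EGFP (0.09 and -0.20), but SNF5 was higher than OMOMYC by 0.29 ± 0.0687 (edgeR adjusted p = 0.0192), where 11.4% of all genes were higher. It was the only gene of the 26 called higher with SNF5 than with OMOMYC.

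**Figure D4:**
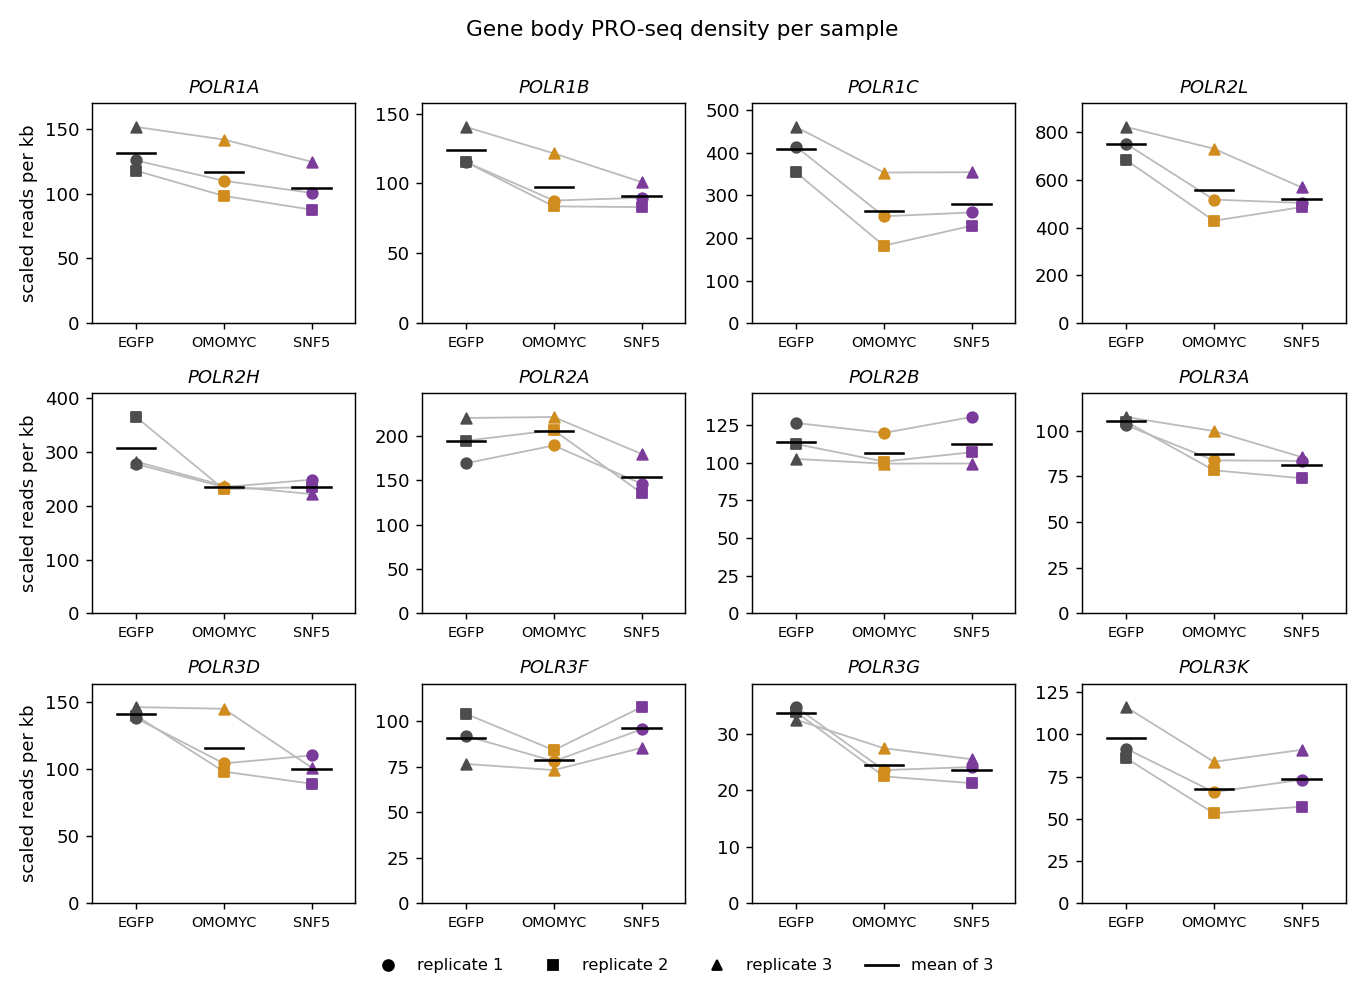
Gene body scaled reads per kb of 12 subunit genes in the 9 PRO-seq samples, with symbols for the replicate number, gray lines joining samples of the same number and a bar at the mean of 3. POLR3A and POLR3G are lower than EGFP in every OMOMYC and SNF5 sample, POLR2A is lower with SNF5 only, POLR2B keeps overlapping values and POLR3F is higher with SNF5 than with OMOMYC at each number.

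Across the 26 tested genes, all 3 SNF5 samples lay below all 3 EGFP samples in 7 (POLR1B, POLR2G, POLR2H, POLR2L, POLR3A, POLR3D and POLR3G), against 8.24% of all genes. The same held with OMOMYC for 7 (POLR1C, POLR1D, POLR2H, POLR2I, POLR3A, POLR3G and POLR3K), against 5.55%. Compared within replicate numbers, SNF5 was below EGFP at all 3 in 18 of 26 genes (32.1% of all genes) and OMOMYC in 17 (27.9%). Set beside the ChIP-seq peaks, 2 of the 5 genes with MYC in both EGFP samples fell with SNF5 (POLR1B and POLR3D), as did 8 of the 13 tested genes with a peak in the second sample alone and 2 of the 8 tested genes with no peak (POLR2E and POLR2L). With OMOMYC the same counts were 1, 4 and 1. Over all tested genes of these classes, 42.4%, 27.2% and 11.5% fell with SNF5 and 19.4%, 7.67% and 2.23% with OMOMYC. The median log2 fold changes with SNF5 were -0.44, -0.34 and -0.19 in that order, and with OMOMYC -0.35, -0.18 and -0.19, against -0.20, -0.13 and 0.04, and -0.15, -0.07 and 0.05, over all genes of the classes.

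These calls depend on the replicate block and on single replicates. Without the block edgeR called no subunit gene in any contrast of either region or of pausing, with 8 gene bodies at an unadjusted p under 0.05 with SNF5 and 5 with OMOMYC. Over all genes that fit called 214 gene bodies higher and 7 lower with SNF5, and 1 higher with OMOMYC. Leaving out replicate 1, 2 or 3 left 5, 3 or 16 gene body calls with SNF5 and 0, 0 or 17 with OMOMYC, always falls, and 1, 0 or 5 calls between the constructs. The share of all genes that fell moved as well, to 3.19%, 2.1% or 32.3% with SNF5 and to 0%, 0% or 25.2% with OMOMYC. Between the constructs 0.857%, 0.804% or 20.3% of all genes were lower with SNF5, and 4.55%, 4.13% or 21.7% were higher.

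In the promoter-proximal window, where 25 genes had enough reads, 2 fell with SNF5 and none rose, against 1.71% and 2.68% of 11245 genes. Both are polymerase III genes. POLR3D had 32.6, 407 and 217 scaled reads in the EGFP samples, 52.1, 330 and 147 in the OMOMYC samples and 26.0, 195 and 127 in the SNF5 samples. The replicate numbers differed far more than the constructs, with the first lowest in every group, and SNF5 was below EGFP at all 3. The log2 fold change was -0.80 ± 0.23 (edgeR adjusted p = 0.0391). POLR3K, with 139, 857 and 661 with EGFP and 79.8, 548 and 393 with SNF5, had -0.73 ± 0.22 at the edge of the threshold (adjusted p = 0.0497), and it missed the threshold with TMM factors (adjusted p = 0.0506). Without replicate 2 neither was called. POLR2H had -0.64 and POLR1C -0.62, neither past the threshold. With OMOMYC no subunit gene was called by edgeR (6 of 25 had an unadjusted p under 0.05), where 0.169% of all genes fell and 1.59% rose. DESeq2 called 1 higher, where 1.07% of all genes rose. Scaling by the promoter-proximal reads themselves gave 8 calls with SNF5 and 1 with OMOMYC, all falls, where 5.25% and 0.969% of all genes fell. Between SNF5 and OMOMYC no subunit gene was called by edgeR (5 with an unadjusted p under 0.05) or DESeq2, where 0.356% of all genes were lower and 0.48% higher with SNF5.

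The pausing index compares promoter-proximal with gene body density, so a higher value means more polymerase near the start for each polymerase in the body. In the EGFP samples, leaving out the POLR2J copies, POLR3E (122, 362 and 228 in replicates 1, 2 and 3) and POLR3B (31.1, 396 and 354) had the highest means over the 3 samples. Their order differed between replicates, and the SD of POLR3B was 200 around a mean of 260. The lowest means were those of POLR3F (6.82), POLR2L (6.96) and POLR2C (8.88). The median of the 25 genes was 38.2, against 28.7 over 11175 genes. Over all genes the median index was 9.33, 44.9 and 27.8 in EGFP replicates 1, 2 and 3, the same order of replicates as in POLR3E and POLR3B.

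With OMOMYC the pausing index of 3 subunit genes rose and none fell, against 2.17% and 0.0805% of all genes. POLR3E had 232, 732 and 289 with OMOMYC, above EGFP at each number, and 157, 585 and 271 with SNF5. Its log2 change was 0.76 ± 0.207 with OMOMYC (edgeR adjusted p = 0.0341) and 0.43 with SNF5 (adjusted p = 0.244). POLR3G had 30.6, 95.2 and 66.4 with EGFP and 78.2, 158 and 93.3 with OMOMYC, a change of 0.83 ± 0.241 (adjusted p = 0.0478 by edgeR).

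POLR1E had 5.73, 42.4 and 17.2 with EGFP and 10.3, 89.8 and 27.3 with OMOMYC, a change of 0.87 ± 0.252 (edgeR adjusted p = 0.0478). For all 3 genes OMOMYC was above EGFP at each replicate number. Over all genes the median log2 change with OMOMYC was 0.14, as it was over the 25 subunit genes. Relative to it the changes were 0.62 for POLR3E, 0.69 for POLR3G and 0.73 for POLR1E. The median index of all genes was 12.1, 53.8 and 26.4 in OMOMYC replicates 1, 2 and 3, against 9.33, 44.9 and 27.8 with EGFP. It was thus lower than EGFP in replicate 3. The median change over all genes was 0.06, 0.09 or 0.30 without replicate 1, 2 or 3. All 3 calls were lost with DESeq2, with only the OMOMYC and EGFP samples in the fit, or without replicate 1 or 2.

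With SNF5 no subunit gene was called for pausing (4 of 25 had an unadjusted p under 0.05, and DESeq2 called none either), where 2.02% of all genes rose and 1.62% fell. The values ran from -0.55 at POLR3B to 0.56 at POLR1E, with a median of 0.00 against 0.01 over all genes. No subunit gene differed in pausing between SNF5 and OMOMYC by edgeR (4 of 25 with an unadjusted p under 0.05) or by DESeq2, where 1.1% of all genes were lower and 0.125% higher with SNF5.

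**Figure D5:**
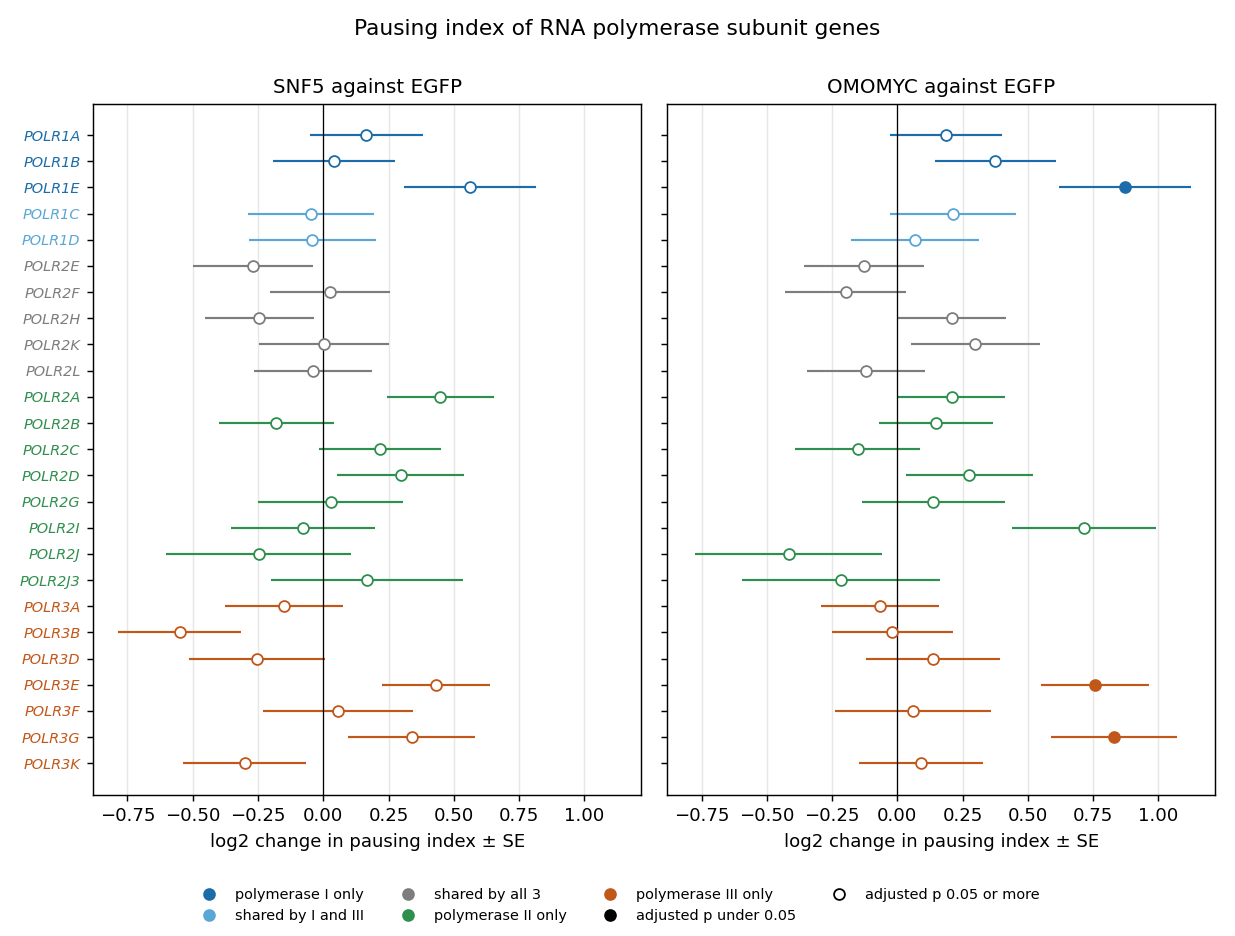
Log2 change in the pausing index ± SE (edgeR) of the 25 subunit genes with enough reads in both regions, SNF5 against EGFP on the left and OMOMYC against EGFP on the right, filled where the adjusted p is under 0.05. The 3 filled points are POLR1E, POLR3E and POLR3G with OMOMYC, between 0.76 and 0.87, and no point is filled with SNF5.

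Genes that work with the polymerases were counted from fixed lists, to be read beside the 17.1% and 17.3% of all genes that fell and rose with SNF5 and the 4.51% and 3.99% with OMOMYC. Of 4 subunits that carry other symbols in the table, 3 could be tested in gene bodies. CD3EAP, the partner of POLR1E in polymerase I, fell by 0.83 on the log2 scale with SNF5 (edgeR adjusted p = 0.00369) and had -0.16 with OMOMYC. TWISTNB, a polymerase I stalk subunit, rose with OMOMYC by 0.79 (edgeR adjusted p = 0.0137). With SNF5 it had 0.29 against EGFP, also above 0, and was not called. Both were lower with SNF5 than with OMOMYC, by -0.67 for CD3EAP and -0.50 for TWISTNB (edgeR adjusted p = 0.0148 and 0.012). The pausing index of CD3EAP rose with both constructs, by 1.19 with SNF5 and 1.04 with OMOMYC (adjusted p = 0.00168 and 0.0107, edgeR).

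Among 7 polymerase I initiation genes 4 fell with SNF5 and 2 with OMOMYC, with medians of -0.24 and -0.24. UBTF, which binds ribosomal DNA, had -0.24 with SNF5 (edgeR adjusted p = 0.00983), and RRN3, which joins the polymerase to its promoter factors, had -0.24 and -0.27 (adjusted p = 0.0235 and 0.0415). TAF1C, of the promoter selectivity factor, had -0.37 with SNF5.

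Of 17 tested general factors of polymerase II, 2 fell and 2 rose with SNF5, a smaller share than over all genes in each direction, and 1 fell and 1 rose with OMOMYC, with medians of -0.08 and -0.04. GTF2F1 fell in both, with -0.45 and -0.31 (edgeR adjusted p = 0.00338 and 0.0486), whereas GTF2F2, which encodes the other subunit of the same factor, rose with SNF5 by 0.28 (adjusted p = 0.00397) and was higher with SNF5 than with OMOMYC by 0.31 (adjusted p = 0.00363). Of 15 polymerase III initiation and repression genes 7 fell with SNF5 and 1 with OMOMYC, with medians of -0.17 and -0.13. GTF3C5, of the factor that recognizes internal promoters, had -0.35 with SNF5, GTF3A, the 5S-specific factor, -0.54, and SNAPC4, which binds promoters of small nuclear RNA genes, fell in both, by 0.32 and 0.38. The repressor MAF1 was also among the 7 that fell, by 0.45, and is named here after its value was seen. Of 7 assembly and import genes 2 fell with SNF5, GPN3 by 0.38 and URI1 by 0.26, and 0 passed with OMOMYC by edgeR (1 had an unadjusted p under 0.05).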

How the data were processed

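PRO-seq reads had been trimmed, reverse complemented, aligned to hg19 with Bowtie2 and stripped of ribosomal reads and of reads with a mapping quality under 10, and the deposited table holds raw counts per transcript for the promoter-proximal window (50 bp, within 500 bp of the start) and the gene body, with the authors' gene body density as a signal column that served only to check gene lengths. In the peak lists deposited by the authors (MACS2, hg19 for ChIP-seq at a q-value of 0.01 and hg38 for ATAC-seq at 0.001), the fold enrichment is a ratio and the p-value and q-value are given as −log10. Placeholder lines in the OMOMYC lists were left out, and the IgG samples were not analysed here.

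Counts of 1 transcript per symbol were tested with edgeR 4.0.16 (R 4.3.3) in all 9 samples with the replicate number as a block, since the study's methods account for a batch effect. Gene body totals times RLE factors scaled both regions. Genes with a mean under 10 counts were left out, which leaves precision limited by counts of the low genes, and p-values were adjusted over all genes tested (Benjamini-Hochberg, threshold 0.05). The pausing index was tested as the interaction of region and construct. Deviations of same-numbered samples from their group means correlated at 0.753 to 0.882 in gene bodies and 0.690 to 0.849 in promoter-proximal windows, against at most 0.126 for other pairs, so the numbers were taken to pair the samples. Scaled reads are counts divided by a sample's size relative to the geometric mean of the 9. A MYC peak belonged to a gene when its summit lay within 1 kb of the start. The code was tested on simulated data. Alternatives were DESeq2 1.42.0, TMM, totals alone, other filters, fewer samples and no block. Canonical starts and sequences came from GENCODE and the GRCh37 genome, promoters from RefSeq. One further gene taken by the rule is not reported here. All other subunit genes could be named, with per-sample values for those past the threshold, and up to 3 genes per further list by the smallest adjusted p in gene bodies. The members and lists were chosen with earlier results of these data known.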

Additional observations from a re-analysis of the deposited data

Results flagged for a closer look

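The effects of SNF5 and OMOMYC against EGFP differed for 2 of the 26 tested POLR genes in gene bodies. This rests on a direct test of one construct against the other (edgeR with the replicate block). Of the 26, 1 was lower and 1 higher with SNF5, where 7.54% of all 15057 genes were lower and 11.4% higher. The subunit genes were thus not called more often than genes in general. POLR2A was lower with SNF5 than with OMOMYC by -0.43 on the log2 scale (adjusted p = 0.00393), at each of the 3 replicate numbers. Over the alternatives its value ran from -0.49 to -0.33, with adjusted p = 0.0711 without replicate 2 and 0.34 without the block. POLR3F was higher with SNF5 than with OMOMYC by 0.29 (adjusted p = 0.0192), also at each of the 3 numbers, with values from 0.24 to 0.32 over the alternatives and adjusted p = 0.198 without replicate 1, 0.214 without replicate 2 and 0.604 without the block. CD3EAP and TWISTNB, polymerase I subunits under other symbols, also differed, by -0.67 and -0.50 (adjusted p = 0.0148 and 0.012). POLR2A and POLR3F were looked up among 26 genes, and groups of 3 samples were too small to be examined for outlying samples.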

How the results depend on the processing

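Every one of the 25 single calls (12, 6 and 2 in gene bodies, 2 promoter-proximal, 3 in pausing) kept its direction under every alternative run, and 24 kept the threshold with TMM factors, 21 with DESeq2, 23 with gene body totals alone, 25 without a filter, 24 with a mean of at least 50 counts and 18 with only the 2 groups compared. Without the replicate block 0 kept it, and the number of subunit genes called was 0 in each comparison. For gene bodies with SNF5 the number was 3 to 16 when 1 replicate was left out. With OMOMYC it was 0 to 17, and 10 with DESeq2, where 7.05% of all genes fell and 6.44% rose. Between SNF5 and OMOMYC it was 0 to 5 (5 without replicate 3), and 4 with gene body totals alone. Without replicate 3, 20.3% of all genes were lower and 21.7% higher with SNF5 than with OMOMYC. With totals alone it was 12.1% and 9.92%. For promoter-proximal reads with SNF5 it was 0 to 6 (6 without replicate 1), 1 with TMM factors, totals alone, the stricter filter or only the 2 groups, and 8 with promoter-proximal RLE factors. Without replicate 1, 5.37% of all genes fell, and 5.25% fell with promoter-proximal RLE factors. Under the settings with 1 call, 1.28% to 2.17% of all genes fell. With OMOMYC it was 0 to 1 when 1 replicate was left out, 1 with DESeq2 and 1 with promoter-proximal RLE factors, and between the constructs 0 to 2. Without replicate 3, 7.54% of all genes rose with OMOMYC, and 3.91% were lower with SNF5 than with OMOMYC. With DESeq2 1.07% rose with OMOMYC, and with promoter-proximal RLE factors 0.969% fell. For pausing with OMOMYC it was 0 to 4 when 1 replicate was left out (0 without replicate 1 or 2) and 0 with DESeq2 or only the 2 groups, and between the constructs 0 to 1. Without replicate 3, the index of 8.58% of all genes rose with OMOMYC, and 4.15% were lower with SNF5 than with OMOMYC. The cause of these changes was not tested. MYC peaks common to both EGFP samples were at 2 subunit genes when peaks had to overlap reciprocally by 50%, at 4 within 500 bp and 8 within 5 kb, and single samples gave 5 to 19. The share of all genes was not counted under the overlap, 500 bp and 5 kb rules. The ATAC-seq count was the same within 500 bp. Low promoter-proximal depth in replicate 1, from 518900 reads, limits what the window and pausing tests can show.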
